A study of Mus musculus with 18 samples.

Results

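The genes followed here build, fold and dispose of proteins in the endoplasmic reticulum (ER) of mouse embryonic stem (ES) cells. They comprise ER chaperones, disulphide enzymes, components of ER-associated degradation (ERAD), translocon subunits, and sensors and transcription factors of the unfolded protein response. The genes were chosen by symbol with earlier results of these data known, and 36 were listed. A gene counted as measured when a probe with its symbol was detected, at a detection p-value under 0.05, on both arrays of at least 1 group. By that rule 28 of the 36 were measured, among 10980 measured genes in all.

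Total RNA was read on 18 Illumina Sentrix Mouse-6 v1.1 arrays in 9 groups of 2. All cells carry the strain label 129P2/Ola and the cell line label CGR8, an ES cell line that is kept undifferentiated by leukaemia inhibitory factor (LIF). One course followed LIF withdrawal with cyclosporin A (CsA) at days 0, 1 and 3, and another followed LIF withdrawal without CsA on the same days. The last course used ideltaCnAES cells, in which expression of deltaCnA was induced by withdrawal of tetracycline (Tc) for 0, 1 and 4 days. CsA binds cyclophilins, and the complex blocks the phosphatase calcineurin. DeltaCnA is a shortened calcineurin A that acts without its calcium signal. The labels do not say how long CsA had been present at day 0, whether the ideltaCnAES cells were kept in LIF, or whether they derive from 1 clone. The labels do not say whether the 2 arrays of a group came from separate cultures, so a p-value sets a difference against the spread of these arrays, which may be technical, and no more.

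When unfolded proteins build up in the ER, 3 membrane sensors respond. IRE1 (gene Ern1) splices the mRNA of Xbp1 into a form that encodes an active transcription factor, ATF6 is cut to release its own transcription factor part, and PERK (gene Eif2ak3) slows translation and raises ATF4 and CHOP (gene Ddit3). XBP1 and ATF6 raise the genes of folding and ERAD, in part through the ER stress response element (ERSE), a DNA motif read together with the factor NF-Y. The array probe for Xbp1 measures its mRNA and not the splicing.

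The promoters show which of the genes carry that motif. The 250 bases before the RefSeq start (build GRCm38.p6) were searched on both strands for ERSE (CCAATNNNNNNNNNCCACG), for ERSE-II (ATTGGNCCACG) and for the core of the unfolded protein response element, UPRE (TGACGTG). ERSE and ERSE-II share the letters CCACG, and no matches of different motifs overlapped in these windows. A window was held for 30 of the 36 genes. ERSE was found in 10 of the 30, against 0.154% of the 17492 genes with a window, and ERSE-II in 1 of the 30, against 0.0515%. The UPRE core was found in 1 of the 30, against 2.08% of genes. A match describes letters only and is no measured binding. The matches of the measured genes are shown 5′ to 3′ along the strand of the match, with the fixed letters of the motif in capitals. They carry the motif that XBP1, ATF6 and NF-Y are known to read.
Hspa5, -65 to -47 from the start: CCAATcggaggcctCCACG
Hsp90b1, -212 to -194: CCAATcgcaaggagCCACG
Hsp90b1, -107 to -89, opposite strand: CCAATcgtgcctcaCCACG
Creld2, -126 to -108, opposite strand: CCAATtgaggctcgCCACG
Canx, -145 to -127: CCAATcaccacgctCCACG
Pdia6, -98 to -80: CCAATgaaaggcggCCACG
Ero1b, -201 to -183, opposite strand: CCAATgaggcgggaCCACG
Syvn1, -44 to -26: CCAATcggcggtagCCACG
Derl3, -156 to -138, opposite strand: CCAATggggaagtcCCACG
Herpud1, -52 to -42, the single ERSE-II: ATTGGgCCACG

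The whole windows of 5 genes are printed because they differ in motif while their array values are described below. Capitals mark the motif letters, and on the strand of the gene an opposite-strand ERSE reads CGTGG before ATTGG. Hspa5 carries an ERSE and the UPRE core, Hsp90b1 has 2 ERSEs on opposite strands, Syvn1 has an ERSE close to its start, Herpud1 has ERSE-II, and Sdf2l1 has no full match to any of the 3 motifs.
Hspa5, chr2:34771840-34772089, plus strand: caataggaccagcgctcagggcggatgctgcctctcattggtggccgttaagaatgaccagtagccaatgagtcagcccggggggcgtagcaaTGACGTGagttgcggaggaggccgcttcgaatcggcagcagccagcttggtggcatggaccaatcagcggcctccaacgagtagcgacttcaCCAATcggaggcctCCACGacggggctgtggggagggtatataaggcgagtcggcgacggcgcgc
Hsp90b1, chr10:86705445-86705694, minus strand: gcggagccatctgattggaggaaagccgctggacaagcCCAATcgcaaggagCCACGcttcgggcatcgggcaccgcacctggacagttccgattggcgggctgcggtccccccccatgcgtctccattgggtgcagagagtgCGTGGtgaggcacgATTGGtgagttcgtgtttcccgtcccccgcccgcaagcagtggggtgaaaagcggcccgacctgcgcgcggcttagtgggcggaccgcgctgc
Syvn1, chr19:6046326-6046575, plus strand: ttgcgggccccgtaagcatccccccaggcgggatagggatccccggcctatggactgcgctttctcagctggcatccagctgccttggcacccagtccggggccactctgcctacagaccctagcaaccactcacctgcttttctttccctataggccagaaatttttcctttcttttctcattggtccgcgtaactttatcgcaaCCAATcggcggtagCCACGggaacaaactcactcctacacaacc
Herpud1, chr8:94386179-94386428, plus strand: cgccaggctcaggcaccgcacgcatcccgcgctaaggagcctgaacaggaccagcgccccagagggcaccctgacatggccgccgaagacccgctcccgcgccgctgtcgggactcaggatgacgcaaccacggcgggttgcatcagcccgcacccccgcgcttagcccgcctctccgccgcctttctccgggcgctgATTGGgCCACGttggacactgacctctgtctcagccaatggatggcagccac
Sdf2l1, chr16:17132384-17132633, minus strand: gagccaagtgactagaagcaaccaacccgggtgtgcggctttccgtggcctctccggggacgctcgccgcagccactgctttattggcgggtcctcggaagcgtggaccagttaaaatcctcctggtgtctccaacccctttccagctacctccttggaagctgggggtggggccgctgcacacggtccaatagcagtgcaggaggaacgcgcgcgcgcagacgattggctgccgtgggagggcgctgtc

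**Figure D1:**
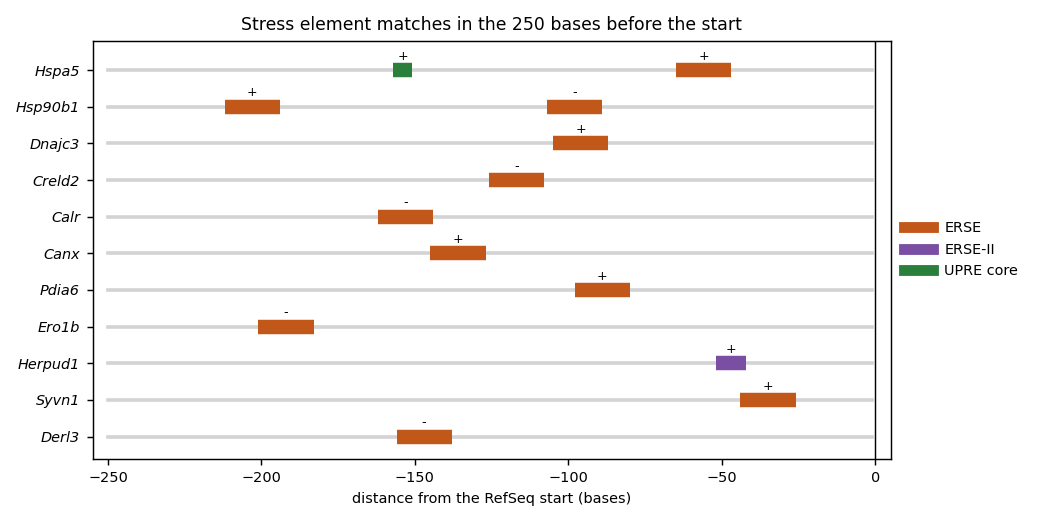
Motif matches in the 250 bases before the RefSeq start, drawn as distance from the start in bases, with 1 line per gene that has a match. The ERSE matches of Hsp90b1 lie at -212 to -194 and at -107 to -89, and that of Syvn1 lies nearest the start, at -44 to -26.

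Mean intensity ran from 287 to 484 on the deposited linear scale, and 40.4% to 44.1% of the 46632 probes were detected. Replicates correlated at r = 0.992 to 0.996 over the 10980 genes, which are not independent replicates. The deltaCnA arrays stood apart in background: their lowest deposited intensities were -58.0 to -47.0, against -29.4 to -23.7 on the other 12 arrays. The part of that difference in levels set side by side across the 2 experiments was not tested, and changes with deltaCnA were tested within its own course. Levels below are log2 intensities after background correction and quantile normalization, and a change is a difference of group means ± its standard error (SE, n = 2 arrays per group). Changes were tested with limma on all 18 arrays, and a gene was called when its Benjamini-Hochberg adjusted p over all 10980 genes was under 0.05. For the label ES cell, 6 of 7 listed ES cell markers were measured, among them Pou5f1, Nanog and Sox2. Each was detected on both arrays of all 9 groups. Their summed intensity, given below, was lower at day 3 of LIF withdrawal without CsA than at day 0.

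With CsA, most of the ER genes were higher at each of the 3 days, and none was called lower. At day 0, 21 of the 28 were called higher, against 6.17% of all genes. At day 1, 22 of the 28 were called higher, against 5.42% of all genes. At day 3, 25 of the 28 were called higher, against 19% of all genes, and the genes called lower were 0 of 28 on each day against 6.99%, 5.34% and 19.1% of all genes. The genes were listed with earlier results of these data known, so these counts describe the list and are no independent support. In bulk RNA, fewer cells of a type and less RNA per cell cannot be told apart.

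The median change of the 28 genes was 0.71 at day 0, 0.73 at day 1 and 0.89 at day 3 on the log2 scale, against medians of -0.02, 0.00 and 0.01 over all genes. The lowest change among the 28 was -0.20 and the highest was 2.88, both at day 3. The 3 comparisons share no arrays, and 19 of the 28 genes were called higher on all 3 days, against 2.29% of all genes. For 21 of the 28, all 6 CsA arrays lay above all 6 arrays of LIF withdrawal without CsA, against 4.13% of all genes. For 20 of the 28, the 6 CsA arrays lay above all 12 other arrays, against 2.06% of all genes. The 19, the 21 and the 20 each include Hspa5, which was measured only through groups with CsA and is no support for them. The average log2 level of the 28 was 9.18 to 9.44 on the CsA arrays, against 8.35 to 8.60 on the arrays without CsA and 8.30 to 8.50 on the deltaCnA arrays. This average and the medians include Hspa5 and Ern1, both measured only through groups with CsA.

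Of the 28, Hspa5 and Ern1 passed the detection rule only through groups with CsA, Hspa5 through all 3 and Ern1 through that of day 3, so a higher value there was a condition of being measured and their calls are no support for the counts. Of the other 26, 20, 21 and 23 were called higher at days 0, 1 and 3. A subset detected on all 18 arrays, defined after the values were seen, held 20 of the 28. In it, 16, 16 and 18 genes were called higher at days 0, 1 and 3, against 7.53%, 6.76% and 21.8% of the 8415 genes detected on all arrays, and 0 were called lower on any day. At day 0, 13 of the 28 were called higher when the arrays were scaled to a common median in place of quantile normalization. The calls that ended were those of Hsp90b1, Canx, Pdia3, P4hb, Sel1l, Os9, Sec61a1 and Sec61b. With that scaling 17 were called higher at day 1, without Pdia3, Erp44, Sel1l, Sec61a1 and Ssr2, and 20 at day 3, without Canx, Pdia3, Erp44, Os9 and Sec61b. Fewer of all genes were called under that scaling as well on each day, and the closing section gives those counts. Leaving out each array of the comparison in turn left 13 of the 21 calls at day 0 standing throughout, 13 of the 22 at day 1 and 19 of the 25 at day 3.

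Markers of other cell types were read on the same arrays. Of the 6 measured ES cell markers, 0, 2 and 4 were called higher with CsA at days 0, 1 and 3, and none was called lower. Their summed deposited intensity was 33519 to 36256 with CsA against 37146 to 41877 without CsA at day 0, and 24796 to 29840 with CsA against 16847 to 18055 without CsA at day 3. Of 13 listed primitive endoderm markers 6 were measured, of which 0, 1 and 2 were called higher and 1 on each day was called lower. Their sum was 674 to 1143 on the CsA arrays, against 434 to 989 on the arrays without CsA. Gata6, a regulator of primitive endoderm, was detected on both arrays in only 1 group, that of day 3 with CsA, and Sox17 did not pass the detection rule. Of 7 fibroblast markers 2 were measured, Dcn and Thy1, and both were called lower with CsA at days 1 and 3. Their sum was 70.0 to 143 with CsA, against 149 to 475 without CsA, and Col1a1, Col1a2 and Col3a1 did not pass the detection rule. Of 6 trophectoderm markers 4 were measured, with 2, 1 and 1 called higher and 0, 0 and 1 called lower at days 0, 1 and 3, and sums of 1209 to 3691 with CsA against 583 to 2910 without CsA. The part of these markers in the results was not tested on any day.

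**Figure D2:**
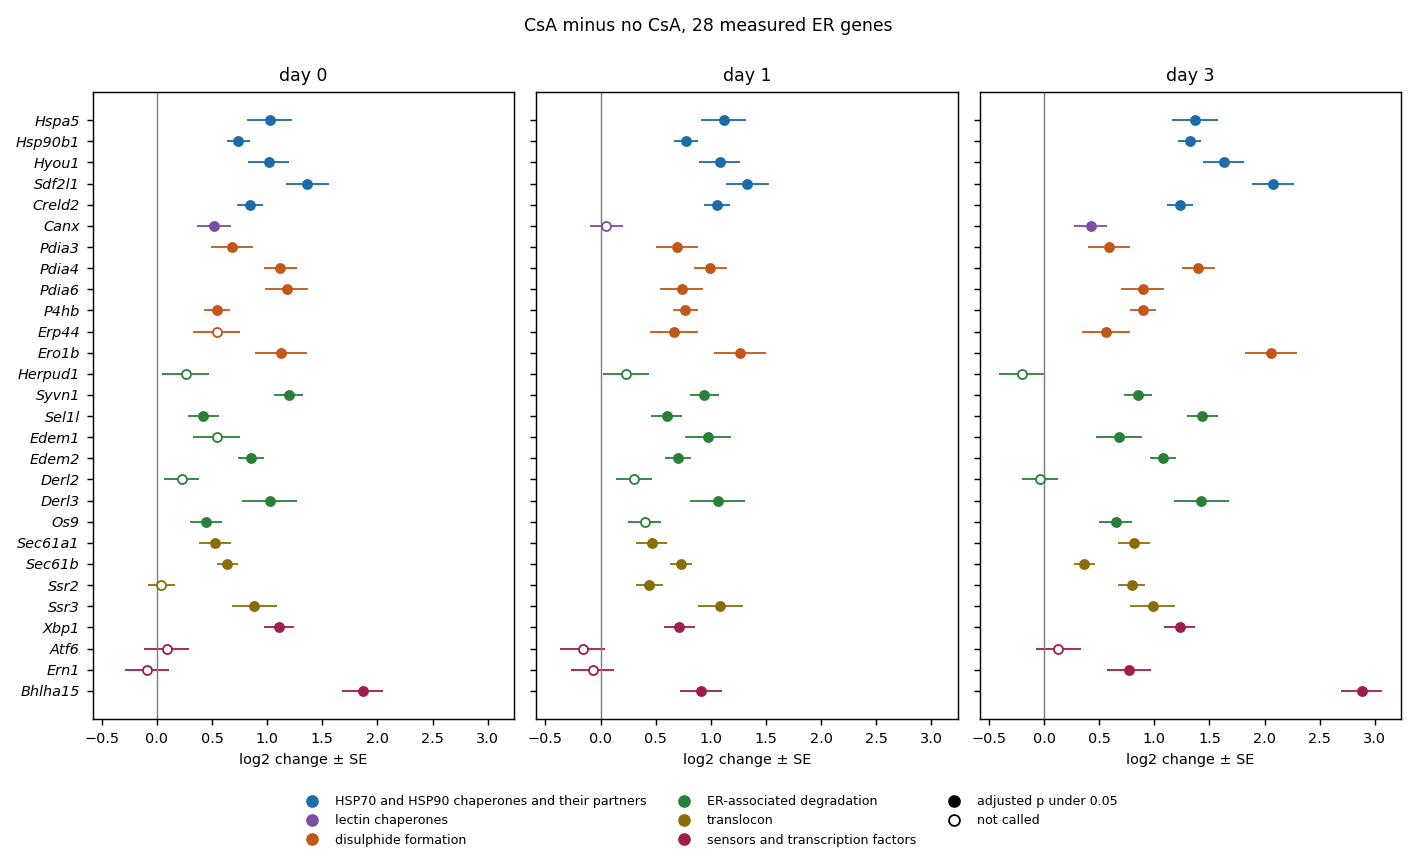
Change of each of the 28 measured genes with CsA against no CsA at days 0, 1 and 3, on a log2 scale, grouped by role. Points are fitted differences, bars are ± 1 SE, and filled points are calls at an adjusted p under 0.05. The calls all lie to the right of 0, and Bhlha15 at day 3 lies farthest right.

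Chaperones of the HSP70 and HSP90 classes and their partners were higher with CsA throughout: Hsp90b1, Hyou1, Sdf2l1 and Creld2, each detected on all 18 arrays, were called on each day, and so was Hspa5, which was measured only through the groups with CsA. Hspa5, which encodes BiP, the main HSP70 of the ER and a partner of all 3 sensors, had log2 levels of 6.21 and 6.17 at day 0, 6.12 and 6.36 at day 1 and 6.24 and 6.35 at day 3 with CsA, against 4.89 and 5.45, 5.21 and 5.03, and 4.74 and 5.11 on those days without CsA. The 6 CsA arrays lay above all others, and on the deltaCnA arrays Hspa5 had 4.81 and 5.22 at day 0, 5.51 and 5.18 at day 1 and 4.94 and 4.97 at day 4. Its probe was detected on every CsA array, which is how it entered the test, but on 1 of 2 arrays at each day without CsA, so the fold is a bound, with the dim arrays set at no less than their lowest detected signal. Hspa5 was at least 1.87-fold higher at day 0, at least 2.04-fold at day 1 and at least 2.29-fold at day 3 (adjusted p = 0.00246, 0.00103 and 1.38e-05).

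Hsp90b1, the HSP90 of the ER (GRP94), had log2 levels of 12.12 and 12.18 at day 0, 12.24 and 12.17 at day 1 and 12.72 and 12.57 at day 3 with CsA, against 11.27 and 11.55, 11.47 and 11.39, and 11.35 and 11.31 without CsA. Every Hsp90b1 value with CsA lay above every value without it. Hsp90b1 on the deltaCnA arrays had 11.04 and 11.06 at day 0, 11.13 and 11.26 at day 1 and 10.80 and 10.85 at day 4, below both other courses. The Hsp90b1 log2 changes with CsA were 0.74 ± 0.11, 0.77 ± 0.11 and 1.32 ± 0.11 at days 0, 1 and 3 (adjusted p = 9.64e-05, 4.62e-05 and 1.47e-09). Hyou1, a large HSP70 that exchanges the nucleotide of BiP, had log2 levels of 8.17 and 8.0 at day 0, 7.87 and 7.93 at day 1 and 8.51 and 8.42 at day 3 with CsA, against 6.89 and 7.27, 6.55 and 7.09, and 6.90 and 6.77 without CsA. For Hyou1 the groups did not overlap. Hyou1 on the deltaCnA arrays had 7.28 and 7.15 at day 0, 7.30 and 7.59 at day 1 and 7.30 and 7.06 at day 4. For Hyou1 the log2 changes with CsA were 1.01 ± 0.18, 1.08 ± 0.18 and 1.63 ± 0.18 at days 0, 1 and 3 (adjusted p = 9.33e-04, 4.65e-04 and 2.58e-07).

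Sdf2l1, a partner of the ER J-proteins that feed clients to BiP, had log2 levels of 8.98 and 9.44 at day 0, 8.93 and 9.33 at day 1 and 8.90 and 9.13 at day 3 with CsA, against 7.84 and 7.85, 7.44 and 8.17, and 6.91 and 6.96 without CsA. All Sdf2l1 values with CsA lay above the rest, and those without CsA were lowest at day 3. Sdf2l1 on the deltaCnA arrays had 7.56 and 7.67 at day 0, 8.24 and 8.17 at day 1 and 7.70 and 7.64 at day 4. The Sdf2l1 log2 changes with CsA were 1.37 ± 0.19, 1.33 ± 0.19 and 2.08 ± 0.19 at days 0, 1 and 3 (adjusted p = 9.32e-05, 9.31e-05 and 1.48e-08). Creld2, a secreted and ER-resident protein induced by ER stress, had log2 levels of 12.30 and 12.44 at day 0, 12.27 and 12.31 at day 1 and 12.26 and 12.43 at day 3 with CsA, against 11.41 and 11.63, 11.06 and 11.41, and 11.12 and 11.11 without CsA. The Creld2 groups did not overlap on any day. Creld2 on the deltaCnA arrays had 11.09 and 11.28 at day 0, 11.34 and 11.40 at day 1 and 11.41 and 11.41 at day 4, within the range of the arrays without CsA. For Creld2 the log2 changes with CsA were 0.84 ± 0.12, 1.06 ± 0.12 and 1.23 ± 0.12 at days 0, 1 and 3 (adjusted p = 7.67e-05, 7.69e-06 and 2.09e-08).

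The measured lectin chaperone was called at days 0 and 3 only, and the difference between days was not called. Canx, calnexin, which holds glycoproteins while they fold, had log2 levels of 8.66 and 8.87 at day 0, 8.43 and 8.64 at day 1 and 8.79 and 8.94 at day 3 with CsA, against 8.34 and 8.16, 8.47 and 8.49, and 8.33 and 8.55 without CsA. Canx with CsA was above its day-matched arrays at days 0 and 3 and overlapped them at day 1. Canx on the deltaCnA arrays had 8.12 and 8.29 at day 0, 8.44 and 8.29 at day 1 and 8.12 and 8.48 at day 4. The Canx log2 changes with CsA were 0.52 ± 0.15, 0.05 ± 0.15 and 0.42 ± 0.15 at days 0, 1 and 3 (adjusted p = 0.0257, 0.878 and 0.0292). The Canx call at day 0 ended when no-CsA replicate 2 (adjusted p = 0.181), CsA replicate 1 (adjusted p = 0.0608) or CsA replicate 2 (adjusted p = 0.182) was left out and that at day 3 when no-CsA replicate 1 (adjusted p = 0.209) or CsA replicate 2 (adjusted p = 0.161) was left out.

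Of the 6 measured genes of disulphide formation, 5 were called higher with CsA at day 0, and 6 at day 1 and at day 3. The shares of all genes called higher were 6.17%, 5.42% and 19% at days 0, 1 and 3. Pdia3, the disulphide isomerase that works with calnexin and calreticulin, had log2 levels of 11.24 and 11.55 at day 0, 11.18 and 11.59 at day 1 and 11.57 and 11.59 at day 3 with CsA, against 10.41 and 11.02, 10.47 and 10.92, and 10.80 and 11.19 without CsA. Both CsA arrays of Pdia3 lay above both day-matched arrays, although the replicates lay far apart at days 0 and 1. Pdia3 on the deltaCnA arrays had 10.85 and 10.62 at day 0, 10.99 and 10.55 at day 1 and 10.47 and 10.41 at day 4. The Pdia3 log2 changes with CsA were 0.68 ± 0.19, 0.69 ± 0.19 and 0.59 ± 0.19 at days 0, 1 and 3 (adjusted p = 0.0206, 0.0208 and 0.0171). The Pdia3 call at day 0 ended when no-CsA replicate 1 (adjusted p = 0.269) or CsA replicate 2 (adjusted p = 0.166) was left out, that at day 1 when no-CsA replicate 1 (adjusted p = 0.242) or CsA replicate 2 (adjusted p = 0.216) was left out and that at day 3 when no-CsA replicate 1 (adjusted p = 0.209), CsA replicate 1 (adjusted p = 0.0702) or CsA replicate 2 (adjusted p = 0.0651) was left out. Pdia4, a disulphide isomerase also called ERp72, had log2 levels of 10.30 and 10.86 at day 0, 10.66 and 10.54 at day 1 and 10.78 and 10.92 at day 3 with CsA, against 9.31 and 9.61, 9.63 and 9.58, and 9.38 and 9.53 without CsA. For Pdia4 the 6 CsA arrays stood above all others. Pdia4 on the deltaCnA arrays had 9.32 and 9.53 at day 0, 9.59 and 9.63 at day 1 and 9.46 and 9.43 at day 4. For Pdia4 the log2 changes with CsA were 1.12 ± 0.15, 1.0 ± 0.15 and 1.40 ± 0.15 at days 0, 1 and 3 (adjusted p = 3.98e-05, 1.00e-04 and 8.35e-08).

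Pdia6, a disulphide isomerase that also acts on the luminal part of IRE1, had log2 levels of 7.95 and 8.35 at day 0, 7.99 and 8.19 at day 1 and 8.20 and 8.38 at day 3 with CsA, against 6.82 and 7.13, 7.15 and 7.56, and 7.35 and 7.43 without CsA. All Pdia6 values with CsA exceeded those of the other 12 arrays. Pdia6 on the deltaCnA arrays had 6.91 and 7.44 at day 0, 7.65 and 7.30 at day 1 and 7.01 and 7.0 at day 4. The Pdia6 log2 changes with CsA were 1.18 ± 0.20, 0.73 ± 0.20 and 0.89 ± 0.20 at days 0, 1 and 3 (adjusted p = 4.53e-04, 0.0181 and 9.12e-04). The Pdia6 call at day 1 ended when no-CsA replicate 1 (adjusted p = 0.202), CsA replicate 1 (adjusted p = 0.0591) or CsA replicate 2 (adjusted p = 0.131) was left out. P4hb, protein disulphide isomerase itself and a subunit of prolyl 4-hydroxylase, had log2 levels of 13.51 and 13.64 at day 0, 13.59 and 13.62 at day 1 and 13.67 and 13.80 at day 3 with CsA, against 12.89 and 13.16, 12.76 and 12.91, and 12.73 and 12.95 without CsA. The P4hb groups did not overlap. P4hb on the deltaCnA arrays had 12.77 and 12.56 at day 0, 13.28 and 13.06 at day 1 and 12.86 and 12.79 at day 4, highest at day 1. For P4hb the log2 changes with CsA were 0.55 ± 0.12, 0.77 ± 0.12 and 0.89 ± 0.12 at days 0, 1 and 3 (adjusted p = 0.00339, 1.31e-04 and 1.80e-06). The P4hb call at day 0 ended when no-CsA replicate 1 was left out (adjusted p = 0.0541).

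Erp44, which holds immature secretory proteins and ERO1 in the early secretory pathway, had log2 levels of 5.67 and 5.85 at day 0, 5.55 and 6.22 at day 1 and 5.90 and 6.09 at day 3 with CsA, against 5.20 and 5.24, 5.20 and 5.23, and 5.52 and 5.36 without CsA. The Erp44 values were close to the detection limit, with the CsA arrays on top. Erp44 on the deltaCnA arrays had 5.27 and 4.79 at day 0, 4.97 and 5.42 at day 1 and 5.32 and 5.34 at day 4. The Erp44 log2 changes with CsA were 0.54 ± 0.22, 0.67 ± 0.22 and 0.56 ± 0.22 at days 0, 1 and 3 (adjusted p = 0.102, 0.0482 and 0.0435), so day 0 missed the threshold. The Erp44 call at day 1 ended when no-CsA replicate 1 (adjusted p = 0.162), no-CsA replicate 2 (adjusted p = 0.152) or CsA replicate 2 (adjusted p = 0.469) was left out and that at day 3 when any 1 of the 4 arrays was left out (adjusted p = 0.0742 to 0.206). Ero1b, the oxidase that recharges disulphide isomerases, had log2 levels of 6.67 and 6.70 at day 0, 6.79 and 6.83 at day 1 and 7.24 and 7.24 at day 3 with CsA, against 5.46 and 5.67, 5.93 and 5.16, and 5.39 and 4.98 without CsA. Ero1b stood above all other arrays with CsA. Ero1b on the deltaCnA arrays had 5.23 and 4.68 at day 0, 5.25 and 4.76 at day 1 and 5.11 and 5.05 at day 4. At day 0 its log2 change was 1.12 ± 0.23 (adjusted p = 0.00284). On 1 of the 2 arrays without CsA at day 1 and at day 3 Ero1b was not well above background, which gives bounds of at least 2.37-fold higher at day 1 and at least 4.09-fold higher at day 3 (adjusted p = 9.41e-04 and 2.62e-07).

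**Figure D3:**
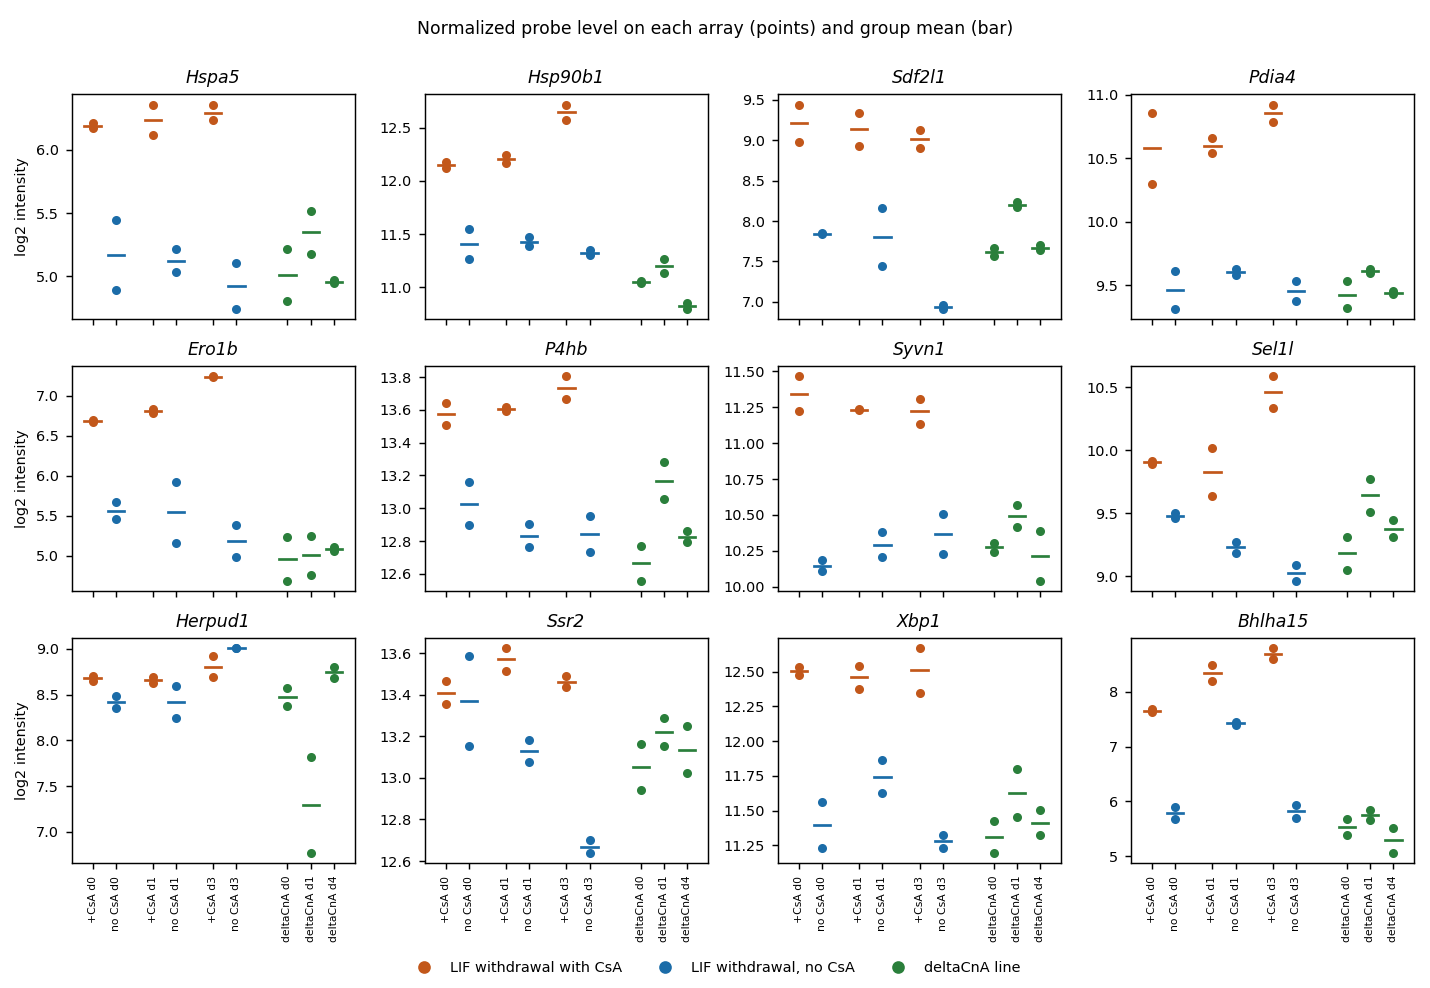
Log2 level of 12 of the genes on each of the 18 arrays, by day, with CsA left of no CsA at each day and the deltaCnA course at the right. Each point is 1 array, bars are group means, and the vertical scale differs between panels. For Hspa5, Hsp90b1, Sdf2l1, Pdia4, Ero1b, P4hb, Syvn1, Xbp1 and Bhlha15 the 6 CsA arrays lie above the other 12, while Herpud1 overlaps and is lowest at day 1 of deltaCnA.

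Of the 8 measured ERAD genes, 5 were called higher with CsA at day 0, 5 at day 1 and 6 at day 3. The shares of all genes called higher on those days were 6.17%, 5.42% and 19%. Syvn1, the ubiquitin ligase HRD1 at the core of ERAD, had log2 levels of 11.22 and 11.46 at day 0, 11.24 and 11.23 at day 1 and 11.13 and 11.31 at day 3 with CsA, against 10.11 and 10.18, 10.38 and 10.20, and 10.23 and 10.51 without CsA. For Syvn1 the groups were far apart relative to their replicates. Syvn1 on the deltaCnA arrays had 10.24 and 10.31 at day 0, 10.57 and 10.42 at day 1 and 10.39 and 10.04 at day 4. The Syvn1 log2 changes with CsA were 1.20 ± 0.13, 0.94 ± 0.13 and 0.85 ± 0.13 at days 0, 1 and 3 (adjusted p = 6.32e-06, 5.37e-05 and 1.46e-05). Sel1l, the partner that holds HRD1 in its complex, had log2 levels of 9.92 and 9.89 at day 0, 10.02 and 9.64 at day 1 and 10.59 and 10.34 at day 3 with CsA, against 9.46 and 9.50, 9.27 and 9.19, and 8.96 and 9.09 without CsA. Sel1l with CsA lay above all 6 arrays without it and overlapped the deltaCnA arrays, which had 9.31 and 9.05 at day 0, 9.77 and 9.51 at day 1 and 9.45 and 9.31 at day 4. For Sel1l the log2 changes with CsA were 0.42 ± 0.14, 0.60 ± 0.14 and 1.44 ± 0.14 at days 0, 1 and 3 (adjusted p = 0.0470, 0.00636 and 2.56e-08). The Sel1l call at day 0 ended when any 1 of the 4 arrays was left out (adjusted p = 0.130 to 0.197) and that at day 1 when no-CsA replicate 2 (adjusted p = 0.0614) or CsA replicate 1 (adjusted p = 0.172) was left out.

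Edem1, a lectin that marks misfolded glycoproteins for ERAD, had log2 levels of 6.80 and 6.83 at day 0, 7.34 and 7.12 at day 1 and 6.86 and 7.05 at day 3 with CsA, against 6.27 and 6.28, 5.94 and 6.57, and 5.96 and 6.59 without CsA. The Edem1 replicates without CsA lay apart at days 1 and 3, yet all 6 CsA arrays were higher. Edem1 on the deltaCnA arrays had 6.09 and 6.30 at day 0, 6.48 and 6.64 at day 1 and 5.98 and 5.92 at day 4. The Edem1 log2 changes with CsA were 0.54 ± 0.21, 0.98 ± 0.21 and 0.68 ± 0.21 at days 0, 1 and 3 (adjusted p = 0.0955, 0.00382 and 0.0135). The Edem1 call at day 1 ended when no-CsA replicate 1 (adjusted p = 0.107) or CsA replicate 1 (adjusted p = 0.0670) was left out and that at day 3 when no-CsA replicate 1 (adjusted p = 0.270) or CsA replicate 2 (adjusted p = 0.0924) was left out. Edem2, which trims the first mannose in that pathway, had log2 levels of 11.60 and 11.64 at day 0, 11.47 and 11.44 at day 1 and 11.76 and 12.04 at day 3 with CsA, against 10.73 and 10.81, 10.74 and 10.77, and 10.94 and 10.69 without CsA. The Edem2 groups did not overlap. Edem2 on the deltaCnA arrays had 10.47 and 10.41 at day 0, 10.63 and 10.85 at day 1 and 10.48 and 10.64 at day 4. For Edem2 the log2 changes with CsA were 0.85 ± 0.12, 0.70 ± 0.12 and 1.08 ± 0.12 at days 0, 1 and 3 (adjusted p = 6.38e-05, 3.64e-04 and 1.32e-07).

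Derl3, a derlin of the ERAD channel, had log2 levels of 7.11 and 7.47 at day 0, 7.77 and 7.53 at day 1 and 7.78 and 7.84 at day 3 with CsA, against 6.13 and 6.41, 6.46 and 6.70, and 6.04 and 6.73 without CsA. All 6 Derl3 values with CsA lay above the others. Derl3 on the deltaCnA arrays had 5.07 and 6.05 at day 0, 6.27 and 6.28 at day 1 and 5.79 and 5.88 at day 4, of which the first was not detected. The Derl3 log2 changes with CsA were 1.02 ± 0.25, 1.06 ± 0.25 and 1.43 ± 0.25 at days 0, 1 and 3 (adjusted p = 0.00931, 0.00698 and 8.21e-05). The Derl3 call at day 0 ended when no-CsA replicate 1 (adjusted p = 0.0717) or CsA replicate 2 (adjusted p = 0.0903) was left out and that at day 1 when no-CsA replicate 1 (adjusted p = 0.0785) or CsA replicate 1 (adjusted p = 0.0931) was left out. Os9, a lectin that passes glycoproteins to SEL1L, had log2 levels of 8.56 and 8.44 at day 0, 8.45 and 8.43 at day 1 and 8.40 and 8.58 at day 3 with CsA, against 8.06 and 8.05, 8.20 and 7.88, and 7.98 and 7.70 without CsA. The Os9 values with CsA were uniform and above the rest. Os9 on the deltaCnA arrays had 8.29 and 8.10 at day 0, 7.99 and 8.04 at day 1 and 8.34 and 8.34 at day 4. For Os9 the log2 changes with CsA were 0.44 ± 0.15, 0.40 ± 0.15 and 0.65 ± 0.15 at days 0, 1 and 3 (adjusted p = 0.0472, 0.0833 and 0.00113), so day 1 missed the threshold. The Os9 call at day 0 ended when any 1 of the 4 arrays was left out (adjusted p = 0.0905 to 0.260).

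Herpud1, a membrane protein that joins the HRD1 complex and a known target of ATF4 as well as of ATF6 and XBP1, was not called with CsA on any day. Its log2 levels were 8.65 and 8.71 at day 0, 8.69 and 8.62 at day 1 and 8.69 and 8.92 at day 3 with CsA, against 8.48 and 8.35, 8.60 and 8.25, and 9.01 and 9.0 without CsA. Herpud1 with CsA was above its day-matched arrays at days 0 and 1 and below them at day 3. Herpud1 on the deltaCnA arrays had 8.38 and 8.57 at day 0, 6.77 and 7.81 at day 1 and 8.68 and 8.81 at day 4. The Herpud1 log2 changes with CsA were 0.26 ± 0.21, 0.23 ± 0.21 and -0.20 ± 0.21 at days 0, 1 and 3 (adjusted p = 0.469, 0.541 and 0.497). Derl2, another derlin, was not called with CsA either, with log2 changes of 0.22 ± 0.16, 0.30 ± 0.16 and -0.04 ± 0.16 at days 0, 1 and 3 (adjusted p = 0.406, 0.255 and 0.895).

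The 4 measured translocon genes admit new proteins to the ER. They were called higher in 3 of 4 cases at day 0 and in 4 of 4 at days 1 and 3. Of all genes, 6.17%, 5.42% and 19% were called higher at days 0, 1 and 3. Sec61a1, the channel subunit, had log2 levels of 9.32 and 9.39 at day 0, 9.24 and 9.19 at day 1 and 9.33 and 9.47 at day 3 with CsA, against 8.65 and 9.01, 8.60 and 8.90, and 8.57 and 8.62 without CsA. Sec61a1 with CsA exceeded all other arrays by a small margin. Sec61a1 on the deltaCnA arrays had 8.51 and 8.73 at day 0, 9.03 and 8.82 at day 1 and 8.78 and 8.68 at day 4. The Sec61a1 log2 changes with CsA were 0.53 ± 0.14, 0.46 ± 0.14 and 0.81 ± 0.14 at days 0, 1 and 3 (adjusted p = 0.0177, 0.0402 and 8.94e-05). The Sec61a1 call at day 0 ended when no-CsA replicate 1 (adjusted p = 0.188), CsA replicate 1 (adjusted p = 0.0780) or CsA replicate 2 (adjusted p = 0.0950) was left out and that at day 1 when no-CsA replicate 1 (adjusted p = 0.324), CsA replicate 1 (adjusted p = 0.204) or CsA replicate 2 (adjusted p = 0.111) was left out. Sec61b, a small subunit of that channel, had log2 levels of 12.69 and 12.67 at day 0, 12.78 and 12.69 at day 1 and 12.20 and 12.36 at day 3 with CsA, against 12.10 and 11.99, 12 and 12.01, and 11.98 and 11.85 without CsA. Sec61b replicates lay close together and the groups did not overlap. Sec61b on the deltaCnA arrays had 12.06 and 12.03 at day 0, 12.07 and 12.17 at day 1 and 12.13 and 12.09 at day 4. For Sec61b the log2 changes with CsA were 0.64 ± 0.10, 0.73 ± 0.10 and 0.36 ± 0.10 at days 0, 1 and 3 (adjusted p = 1.71e-04, 3.46e-05 and 0.00442). The Sec61b call at day 3 ended when no-CsA replicate 2 (adjusted p = 0.0638) or CsA replicate 2 (adjusted p = 0.0618) was left out.

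Ssr2, a subunit of the translocon-associated protein complex, had log2 levels of 13.35 and 13.46 at day 0, 13.52 and 13.62 at day 1 and 13.49 and 13.44 at day 3 with CsA, against 13.15 and 13.59, 13.07 and 13.18, and 12.70 and 12.64 without CsA. Ssr2 overlapped at day 0 and was above its day-matched arrays at days 1 and 3. Ssr2 on the deltaCnA arrays had 12.94 and 13.16 at day 0, 13.15 and 13.29 at day 1 and 13.02 and 13.25 at day 4. The Ssr2 log2 changes with CsA were 0.04 ± 0.12, 0.44 ± 0.12 and 0.79 ± 0.12 at days 0, 1 and 3 (adjusted p = 0.883, 0.0214 and 1.76e-05). The Ssr2 call at day 1 ended when any 1 of the 4 arrays was left out (adjusted p = 0.0591 to 0.142). Ssr3, another subunit of that complex, had log2 levels of 6.40 and 6.50 at day 0, 6.18 and 6.58 at day 1 and 6.09 and 6.39 at day 3 with CsA, against 5.41 and 5.72, 5.25 and 5.33, and 4.96 and 5.55 without CsA. The dim Ssr3 probe read highest on the 6 CsA arrays. Ssr3 on the deltaCnA arrays had 5.31 and 5.21 at day 0, 5.54 and 5.37 at day 1 and 5.20 and 5.30 at day 4. Ssr3 changed by 0.88 ± 0.20 and 1.09 ± 0.20 on the log2 scale at days 0 and 1 (adjusted p = 0.00648 and 0.00118). At day 3 it was detected on 1 of 2 arrays without CsA and was at least 1.89-fold higher with CsA (adjusted p = 5.05e-04). The Ssr3 call at day 0 ended when no-CsA replicate 1 was left out (adjusted p = 0.0660).

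Among the 4 measured sensors and transcription factors, 2 were called higher with CsA at day 0, 2 at day 1 and 3 at day 3. Of all genes, 6.17%, 5.42% and 19% were called higher on those days. The 3 at day 3 include Ern1, measured only through day 3 with CsA, so its call is no support for the count. Xbp1, the IRE1 target that activates folding and ERAD genes, had log2 levels of 12.53 and 12.47 at day 0, 12.54 and 12.38 at day 1 and 12.35 and 12.67 at day 3 with CsA, against 11.23 and 11.56, 11.86 and 11.63, and 11.32 and 11.23 without CsA. For Xbp1 every CsA array was above every other array. Xbp1 on the deltaCnA arrays had 11.20 and 11.43 at day 0, 11.80 and 11.45 at day 1 and 11.32 and 11.50 at day 4. The Xbp1 log2 changes with CsA were 1.11 ± 0.14, 0.71 ± 0.14 and 1.23 ± 0.14 at days 0, 1 and 3 (adjusted p = 2.88e-05, 0.00148 and 2.44e-07). Bhlha15 (Mist1), a transcription factor of secretory cells and a known XBP1 target, had log2 levels of 7.68 and 7.63 at day 0, 8.48 and 8.19 at day 1 and 8.79 and 8.60 at day 3 with CsA, against 5.67 and 5.90, 7.39 and 7.46, and 5.93 and 5.70 without CsA. The Bhlha15 arrays without CsA read highest at day 1 and those with CsA at day 3, and the groups did not overlap on any day. Bhlha15 on the deltaCnA arrays had 5.67 and 5.38 at day 0, 5.65 and 5.83 at day 1 and 5.51 and 5.06 at day 4. For Bhlha15 the log2 changes with CsA were 1.87 ± 0.19, 0.91 ± 0.19 and 2.88 ± 0.19 at days 0, 1 and 3 (adjusted p = 4.64e-06, 0.00259 and 6.70e-11). The Bhlha15 call at day 1 ended when CsA replicate 1 was left out (adjusted p = 0.0651).

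Ern1, the sensor IRE1, had log2 levels of 5.11 and 4.92 at day 0, 5.04 and 5.08 at day 1 and 5.89 and 5.51 at day 3 with CsA, against 5.28 and 4.93, 4.92 and 5.35, and 5.09 and 4.78 without CsA. It was detected on both arrays only at day 3 with CsA, the group through which it passed the detection rule, and the deltaCnA arrays, none of them detected, had 4.79 and 4.76 at day 0, 4.87 and 4.69 at day 1 and 4.81 and 5.06 at day 4. It was not called at days 0 and 1, when no CsA array detected it (adjusted p = 0.819 and 0.875). At day 3 Ern1 was detected on 1 of 2 arrays without CsA and was at least 1.56-fold higher with CsA (adjusted p = 0.00346). The Ern1 call at day 3 ended when no-CsA replicate 2 (adjusted p = 0.0633) or CsA replicate 1 (adjusted p = 0.0769) was left out. Atf6, another of the sensors, had log2 levels between 4.70 and 5.43 on the 18 arrays and was not called in any comparison. The probe of Atf6 was detected on both arrays of 1 group only, day 0 of deltaCnA.

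The promoter motifs can be set beside these calls as a description. Of the 8 measured genes with an ERSE, 8, 7 and 8 were called higher with CsA at days 0, 1 and 3. The shares of all genes called higher were 6.17%, 5.42% and 19%. Of the 16 measured genes with a window and no ERSE, 11, 12 and 14 were called higher. Hspa5 is among the 8 and Ern1 among the 16. Both were measured only through groups with CsA, so their calls are no support for these counts. Sdf2l1, with no full motif match in its window, and Hsp90b1, with 2 ERSEs, were both called higher on each day. Herpud1, with the ERSE-II, was called on none. Outside the list, 6 measured genes carry an ERSE, of which 2, 1 and 4 were called higher, against the same shares of all genes. None was called lower, against 6.99%, 5.34% and 19.1% of all genes. One of them, Alg12, a mannosyltransferase of glycan assembly, changed by 0.90, 1.31 and 1.47 on the log2 scale, and it is named after its values were seen.

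At day 1 of LIF withdrawal, the share of the 28 genes called higher was close to that of all genes in both courses. Without CsA, 1 of the 28 was called higher at day 1 against day 0 and 0 were called lower, against 3.72% and 4.69% of all genes. That gene was Bhlha15, whose 2 arrays at day 1 lay above both arrays at day 0, with a log2 change of 1.64 ± 0.19 (adjusted p = 1.78e-06). The count was 2 when day 0 replicate 1 was left out, where Ssr2 was also called lower, or day 1 replicate 2, where Creld2 was also called lower. With CsA, 1 gene was called higher at day 1 and 0 lower, against 2.34% and 2.19% of all genes. It was again Bhlha15, with a log2 change of 0.68 ± 0.19 (adjusted p = 0.0356), and the call ended when any 1 of the 4 arrays was left out (adjusted p = 0.0638 to 0.342).

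At day 3 of LIF withdrawal without CsA, 1 of the 28 genes was called higher and 5 were called lower than at day 0, against 18.4% and 19.8% of all genes, so the share called lower was close to that of all genes. Herpud1 rose by 0.59 ± 0.21 on the log2 scale (adjusted p = 0.0302), and its call ended when any 1 of the 4 arrays was left out (adjusted p = 0.0563 to 0.143), and under 5 of the other settings. Sdf2l1 changed by -0.91 ± 0.19 (adjusted p = 6.04e-04) and Ssr2 by -0.70 ± 0.12 (adjusted p = 6.58e-05), each with both day 3 arrays below both day 0 arrays. Derl2 changed by -0.68 ± 0.16 (adjusted p = 0.00165), and its log2 levels ran from 8.43 to 8.72 at day 3 against 9.20 to 9.30 at day 0. Creld2 changed by -0.41 ± 0.12 (adjusted p = 0.00802), a call that ended when day 0 replicate 2 was left out (adjusted p = 0.119). Sel1l changed by -0.46 ± 0.14 (adjusted p = 0.0113), a call that ended when day 0 replicate 2 (adjusted p = 0.0592) or day 3 replicate 1 (adjusted p = 0.0915) was left out, and also under median scaling and with the mean of its probes. The 6 ES cell markers summed to 16847 to 18055 intensity units at day 3 against 37146 to 41877 at day 0, and their part in these changes was not tested.

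With CsA, 4 of the 28 genes were called higher and 2 lower at day 3 against day 0, against 14.9% and 14.6% of all genes, so the share called higher was close to that of all genes. Hsp90b1 rose by 0.50 ± 0.11 (adjusted p = 9.67e-04), a call that ended under median scaling (adjusted p = 0.219). Bhlha15 rose by 1.04 ± 0.19 on the log2 scale (adjusted p = 1.80e-04). Sel1l rose by 0.56 ± 0.14 (adjusted p = 0.00376), a call that ended when day 3 replicate 1 was left out (adjusted p = 0.0746), and also under median scaling and with the mean of its probes (adjusted p up to 0.232). Ern1, not detected at day 0 with CsA and measured only through day 3 with CsA, was at least 1.46-fold higher at day 3 (adjusted p = 0.0104), a call that ended when day 0 replicate 2 (adjusted p = 0.0934) or day 3 replicate 1 (adjusted p = 0.152) was left out. Derl2 changed by -0.94 ± 0.16 (adjusted p = 1.08e-04), with log2 levels of 8.21 and 8.87 at day 3 against 9.46 and 9.49 at day 0. Sec61b changed by -0.40 ± 0.10 (adjusted p = 0.00289), a call that ended when day 3 replicate 1 was left out (adjusted p = 0.0558) and under median scaling (adjusted p = 0.0564). The courses with and without CsA both had lower Derl2 at day 3, and its change did not differ between them by a called amount (-0.26 ± 0.23, adjusted p = 0.522).

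The difference between the courses was tested itself, as the change from day 0 with CsA minus that without CsA. At day 1 none of the 28 genes was called by limma, against 0.0729% of all genes, and 3 had an unadjusted p under 0.05, against 5.69% of all genes. At day 3, 5 of the 28 were called, all with a difference above 0, against 7.99% of all genes called in that direction. One of the 5, Ern1, has no usable size here: it was detected on both arrays only at day 3 with CsA, the group through which it was measured, and on neither array at day 0 with CsA. The count of 5 was 2 without CsA day 3 replicate 1, and 3 without either no-CsA day 0 replicate 2 or no-CsA day 3 replicate 2. The median difference of the 28 at day 3 was 0.25 on the log2 scale, against 0.02 over all genes. Sel1l differed by 1.01 ± 0.20 (adjusted p = 8.91e-04) and Ssr2 by 0.75 ± 0.17 (adjusted p = 0.00400). The Sel1l call ended when the mean of its probes was used (adjusted p = 0.0639). For both genes the day 3 arrays without CsA were the lowest of that course, while those with CsA were above them. Bhlha15 differed by 1.01 ± 0.27 (adjusted p = 0.0108), a call that ended when no-CsA day 0 replicate 2 (adjusted p = 0.0508), no-CsA day 3 replicate 2 (adjusted p = 0.0563) or CsA day 3 replicate 1 (adjusted p = 0.0604) was left out, and also under median scaling, without the background model and with the series matrix values (adjusted p up to 0.0850). Hsp90b1 differed by 0.58 ± 0.15 (adjusted p = 0.00932), a call that ended when no-CsA day 0 replicate 2 (adjusted p = 0.0650) or CsA day 3 replicate 1 (adjusted p = 0.0587) was left out and under median scaling (adjusted p = 0.192). The Ern1 call (adjusted p = 0.0391) ended when no-CsA day 0 replicate 1 (adjusted p = 0.149), no-CsA day 3 replicate 2 (adjusted p = 0.166), CsA day 0 replicate 2 (adjusted p = 0.131) or CsA day 3 replicate 1 (adjusted p = 0.195) was left out.

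**Figure D4:**
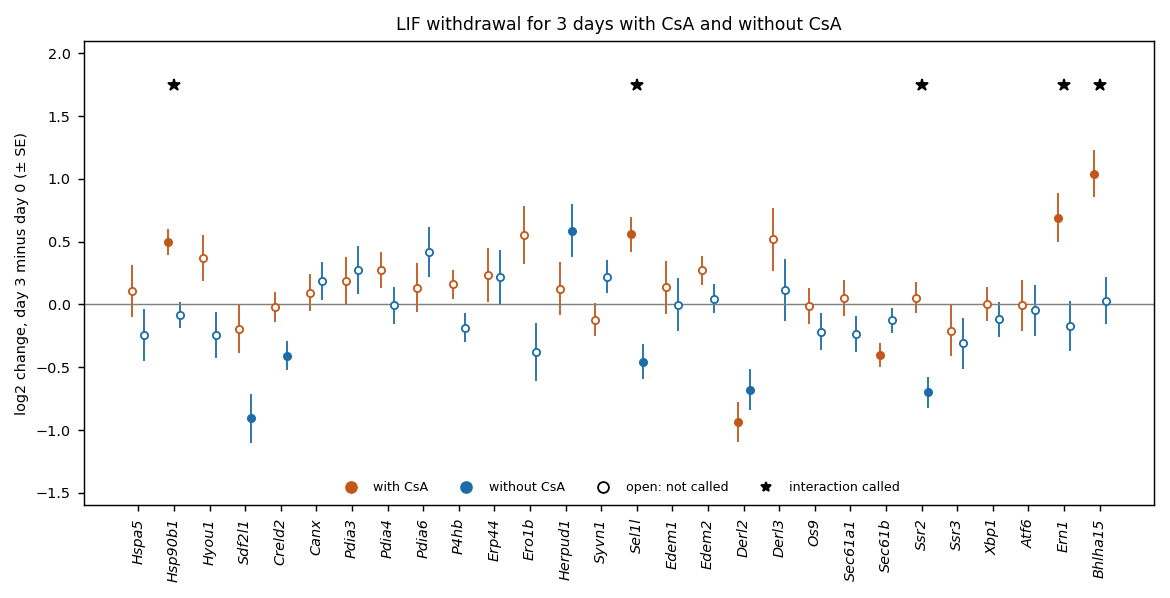
Change at day 3 against day 0 for the 28 measured genes, on a log2 scale, with CsA at the left and without CsA at the right for each gene. Points are fitted changes, bars are ± 1 SE, filled points are calls, and a star marks the 5 genes whose change differed between the courses by a called amount. For the starred genes, Hsp90b1, Sel1l, Ssr2, Ern1 and Bhlha15, the point with CsA lies above the point without it. Ern1 was not detected at day 0 with CsA, so its points carry no size.

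At day 1 of deltaCnA induction, the shares of the 28 genes called in the main fit were close to those of all genes. At day 1 of Tc withdrawal, 2 of the 28 were called higher and 1 lower than at day 0, against 6.54% and 4.63% of all genes. With the replicate number as a block, 4 were called higher, against 7.40% of all genes, and 4 with median scaling over detected probes, against 6.79%. Of the 28, 25 had a change above 0, against 51.8% of all genes. The median change of the 28 was 0.20 on the log2 scale, against 0.01 over all genes, and both day 1 arrays lay above both day 0 arrays for 16 of the 28, against 28.3% of all genes. Herpud1 changed by -1.18 ± 0.21 (adjusted p = 9.52e-04), with log2 levels of 6.77 and 7.81 at day 1 against 8.38 and 8.57 at day 0, where the groups did not overlap and the day 1 replicates lay apart. P4hb rose by 0.50 ± 0.12 (adjusted p = 0.00697), a call that ended when day 0 replicate 2 (adjusted p = 0.126) or day 1 replicate 1 (adjusted p = 0.154) was left out, and under median scaling. Sel1l rose by 0.46 ± 0.14 (adjusted p = 0.0340), a call that ended when day 0 replicate 2 (adjusted p = 0.310) or day 1 replicate 1 (adjusted p = 0.347) was left out, and under 5 of the other settings. At day 4 none of the 28 was called by limma, against 3.42% of all genes in either direction, and 1 had an unadjusted p under 0.05, against 15% of all genes. Herpud1 at day 4, with 8.68 and 8.81, was back above its day 0 arrays, and its log2 change of 0.27 ± 0.21 was not called (adjusted p = 0.619). The chaperones that were higher with CsA showed no call with deltaCnA: Hspa5 was detected on 1, 1 and 0 of 2 arrays at days 0, 1 and 4, and the log2 change of Hsp90b1 was 0.15 ± 0.11 at day 1 and -0.23 ± 0.11 at day 4 (adjusted p = 0.418 and 0.307). For Sdf2l1 the log2 changes were 0.59 ± 0.19 and 0.05 ± 0.19 (neither called, adjusted p = 0.0514 and 0.946).

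**Figure D5:**
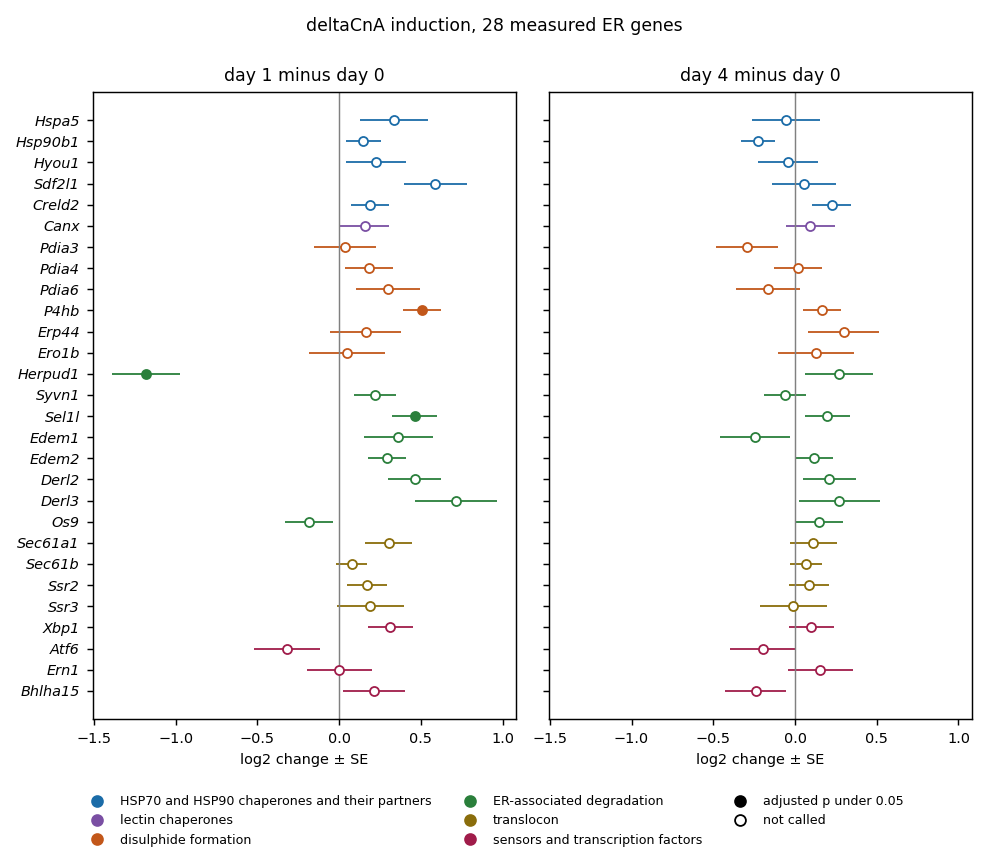
Change of the 28 measured genes at days 1 and 4 of deltaCnA induction against day 0, on a log2 scale. Points are fitted differences, bars are ± 1 SE and filled points are calls. Herpud1 lies far left at day 1, P4hb and Sel1l are called to the right, and no gene is called at day 4.

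Neighbouring genes of the same pathways, listed with earlier results of these data known, were counted in the same fit. Of 18 further ER folding genes measured, 10, 9 and 13 were called higher with CsA at days 0, 1 and 3, against 6.17%, 5.42% and 19% of all genes, and 0 were called lower. Their median changes were 0.42, 0.41 and 0.59 on the log2 scale. Among them Pdia5, a disulphide isomerase, changed by 0.95 ± 0.14, 1.24 ± 0.14 and 1.51 ± 0.14 on the log2 scale. Fkbp11, a prolyl isomerase of the secretory pathway, changed by 0.99 ± 0.15, 0.75 ± 0.15 and 1.22 ± 0.15, and Kdelr3, a receptor that returns chaperones to the ER, by 0.88 ± 0.15, 1.34 ± 0.15 and 1.23 ± 0.15. Of 15 further ERAD genes, 3, 5 and 4 were called higher, with medians of 0.13, 0.20 and 0.23, and the day 3 count lay not far from the share of all genes. They were led by Selenos, a selenoprotein of the ERAD channel, with 1.12 ± 0.16, 1.09 ± 0.16 and 1.22 ± 0.16. Of 21 further genes of translocation and glycosylation, 8, 7 and 11 were called higher, with medians of 0.25, 0.19 and 0.40, among them Sec11c of the signal peptidase with 0.82 ± 0.19, 0.88 ± 0.19 and 1.42 ± 0.19. The counts of higher genes ran lower under other settings, down to 3, 3 and 8 for folding, 1, 1 and 2 for ERAD and 1, 3 and 6 for translocation.

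For the ATF4 and CHOP arm, 17 genes were measured. Eif2ak3, the gene of PERK, did not pass the detection rule, and whether changes of the arm came through PERK was not tested. With CsA, 6, 3 and 5 were called higher and 0, 0 and 1 lower at days 0, 1 and 3, against 6.17%, 5.42% and 19% of all genes higher, and the medians were 0.44, 0.39 and 0.29. Under the other settings the higher count ran from 2 to 6 at day 0, from 1 to 7 at day 1 and from 4 to 5 at day 3. Ddit3, CHOP itself, changed by 1.62 ± 0.20, 1.62 ± 0.20 and 2.54 ± 0.20 on the log2 scale. At day 3 Nupr1, a stress-induced chromatin protein, changed by 2.65 ± 0.45 and Trib3, a CHOP target that restrains ATF4, by 1.15 ± 0.23. The gene called lower at day 3 was Atf3, a stress-induced factor, with -0.79 ± 0.24, a call that ended when 1 array of either group was left out (adjusted p up to 0.0865). Some genes of the arm were also called in LIF withdrawal. At day 3 against day 0 without CsA, 7 of the 17 were called higher and 0 lower, against 18.4% of all genes higher, with a median of 0.26 and a count of 4 to 8 under the other settings. Vldlr, a lipoprotein receptor, changed by 2.70 ± 0.31, Ddit4, an inhibitor of mTORC1 signalling, by 1.13 ± 0.23, Cebpb, a partner of CHOP, by 1.04 ± 0.19 and Ddit3 by 0.74 ± 0.20, of which the Ddit3 call ended when day 0 replicate 2 or day 3 replicate 1 was left out (adjusted p up to 0.134). Atf3, not detected at day 0, was at least 2.04-fold higher. In LIF withdrawal with CsA, 5 of the 17 were called higher at day 3 and 0 lower, against 14.9% of all genes higher, with a median of 0.40 and a count of 2 to 8. Ddit3 changed there by 1.65 ± 0.20 and Vldlr by 1.39 ± 0.31. At day 1 of LIF withdrawal 0 of the 17 were called in either course. Of all genes, 3.72% were called higher and 4.69% lower without CsA, and 2.34% and 2.19% with CsA. With deltaCnA at day 1, 0 of the 17 were called higher and 9 lower, against 6.54% and 4.63% of all genes. The median change of the 17 was -0.77 against 0.01 over all genes, and the lower count ran from 6 to 10 under the other settings. Nupr1 changed by -2.46 ± 0.45, Ddit3 by -2.05 ± 0.20, Cebpb by -1.39 ± 0.19 and Trib3 by -1.19 ± 0.23 on the log2 scale. Chac1, a glutathione-cleaving target of ATF4, changed by -2.17 ± 0.41, and Vldlr was at least 4.66-fold lower. At day 4 of deltaCnA 0 of the 17 were called in either direction, against 3.42% of all genes. Of 9 measured proteases and paralogous factors of the response, 2, 1 and 2 were called higher with CsA and 0, 0 and 2 lower, so at day 3 both counts lay close to the 19% and 19.1% of all genes. Wfs1, an ER calcium regulator, changed by 0.62 ± 0.18, 0.87 ± 0.18 and 1.26 ± 0.18, and Creb3, a membrane-bound factor, by -1.14 ± 0.12 at day 3.

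Of the listed genes, 8 were not measured. Dnajb11 and Ssr1 matched no probe symbol in the platform annotation, so only their promoter windows were read. Dnajb9, Dnajc3, Manf, Calr, Derl1 and Eif2ak3 had a probe that was not detected on both arrays of any group. Dnajb9, a J-protein partner of BiP, was detected on 1 array, Eif2ak3, the sensor PERK, on 4 arrays, and the other 4 on none. Without the detection rule none of the 6 was called in any comparison, and the lowest adjusted p with CsA was that of Dnajb9 at day 3, 0.0801. Calr and Dnajc3 carry an ERSE in their windows.

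Some genes had further probes that passed the detection rule. Another Bhlha15 probe was also called higher with CsA, with log2 changes of 1.23, 0.72 and 2.36 at days 0, 1 and 3, and a further, dim probe was not called. Other probes of Pdia6 (0.79, 0.73 and 1.26), Edem2 (0.81, 0.72 and 0.73) and Sec61b (0.82, 0.95 and 0.51) were called higher on the same days. Further probes of Canx, Sel1l, Sec61a1, Ssr3 and Edem2 were not called with CsA.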

How the data were processed

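Per the labels' protocols, total RNA was extracted with Trizol and turned into biotinylated cRNA (Ambion MessageAmp). Per the file headers, the authors deposited probe intensity values that were not normalized. They are linear. A detection p-value was deposited beside each intensity and ranks the probe against negative controls. The series matrix holds processed intensity values of the same arrays, deposited by the authors with an unstated normalization, and served as an alternative. Precision is limited by the number of arrays and, for dim probes, by background.

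From the deposited values, background was modelled with normexp in limma 3.58.1 (R 4.3.3), with negative controls inferred from the detection p-values and an offset of 16. Quantile normalization and log2 followed. The platform annotation names 1 gene for 29976 of 46632 probes, several for 10 and none for 16646. A probe passed when detected at p under 0.05 on both arrays of a group, and each gene was represented by its brightest passing probe. The 9 group means of all 18 arrays were contrasted in limma with an intensity trend (9 residual degrees of freedom), and p-values were adjusted by Benjamini-Hochberg over 10980 genes. The fit was tested on simulated data. Columns of other samples numbered 0.

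The members and the other gene lists were chosen with earlier results of these data known. All listed genes could be named: those called with CsA or with deltaCnA are given on every array, the others by range. From the other lists at most 6 genes were eligible in each comparison, the called ones with the greatest change. Groups and replicate numbers came from the sample titles. The labels do not say that equal replicate numbers pair the arrays, so they were not used as pairs, and a fit with them as a block is an alternative. Promoter windows are RefSeq's, build GRCm38.p6. Alternatives are given in the closing section, and the chip of each array was not used because the headers do not give it.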

Additional observations from a re-analysis of the deposited data

Results flagged for a closer look

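The test of whether the change from day 0 to day 3 differed between the courses with and without CsA picked out 4 of the 28 genes for a closer look. For each, the change with CsA minus that without CsA was above 0. The mean log2 level of Ssr2 fell without CsA, from 13.37 at day 0 to 12.67 at day 3. With CsA it was 13.41 and 13.46 on those days. On the log2 scale the difference was 1.01 ± 0.20 for Sel1l (adjusted p = 8.91e-04) and 1.01 ± 0.27 for Bhlha15 (adjusted p = 0.0108). It was 0.75 ± 0.17 for Ssr2 (adjusted p = 0.00400) and 0.58 ± 0.15 for Hsp90b1 (adjusted p = 0.00932). Another Bhlha15 probe was called as well, with a difference of 1.14 ± 0.23 (adjusted p = 0.00163 over all kept probes). The Sel1l difference was smaller and not called when the mean of its probes was used (adjusted p = 0.0639). Ern1 also passed the threshold, but it was detected on neither array at day 0 with CsA and on both only at day 3 with CsA, the group through which it was measured, so its difference has no size and is not counted here. No sample could be examined as standing apart within its group, since each group has 2 arrays.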

How the results depend on the processing

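Of the 90 called changes of the 28 genes, 50 were called under every alternative run. Over 1346 refits of these changes the call held in 1167, and 0 refits gave the opposite sign. Leaving out each array in turn gave 14 to 18 called genes with CsA at day 0 (21 with all arrays), 15 to 19 at day 1 (22) and 20 to 22 at day 3 (25). LIF withdrawal gave 1 to 2 at day 1 and 4 to 5 at day 3. LIF withdrawal with CsA gave 0 to 0 at day 1 and 4 to 6 at day 3. The difference between courses gave 0 at day 1 and 2 to 6 at day 3, and deltaCnA gave 1 to 3 at day 1 and 0 at day 4. With median scaling in place of quantile normalization, 13 genes were called with CsA at day 0, 0 at day 1 and 3 at day 3 of LIF withdrawal with CsA, and 3 in the day 3 difference. In LIF withdrawal with CsA at day 1, the single call was also lost (0) without the background model, with the series matrix values, with probes averaged per gene, without the detection rule and among genes detected on all 18 arrays. Among the genes detected on all arrays, a choice made after seeing the data, 0 were called at day 1 of LIF withdrawal and 3 in the day 3 difference. With deltaCnA at day 1, 5 genes were called with the replicate block, and 5 with median scaling over probes detected on all arrays, also chosen after seeing the data. Deviations of same-numbered arrays from their group means correlated at 0.054 to 0.353 over 15 pairs of groups within the LIF withdrawal courses (13 over 0.1), at 0.13 to 0.196 over 3 pairs within deltaCnA (3 over 0.1) and at -0.206 to 0.058 over 18 pairs between them (0 over 0.1), a hint from the data that numbers mark something shared within each experiment, which the labels do not state. The replicate block gave 21, 22 and 25 calls with CsA at days 0, 1 and 3, and 7 in the day 3 difference. Sel1l in that difference was not called with the mean of its probes (adjusted p = 0.0639). The causes of these shifts were not tested. The background counts moved more: with CsA, 1446, 1181 and 4183 genes were called at days 0, 1 and 3, against 429, 399 and 2630 under median scaling and 465 to 1065, 446 to 766 and 2900 to 3805 with 1 array left out, and 730 were called at day 0 when only the compared arrays were fitted. Under median scaling 220 against 498 genes were called in LIF withdrawal with CsA at day 1, 1780 against 3246 at day 3, 793 against 1678 in the day 3 difference, 468 against 1226 with deltaCnA at day 1 and 171 against 376 at day 4. The day 4 count was 684 with only the compared arrays. The day 1 difference had 8 called genes, against 1 to 5 with the mean of probes, no detection rule, genes on all arrays or only the compared arrays. With 1 array left out, LIF withdrawal at day 1 had 476 to 727 called genes against 924, LIF withdrawal with CsA had 236 to 294 against 498 at day 1 and 2032 to 2781 against 3246 at day 3, the day 3 difference 998 to 1804 against 1678, deltaCnA 239 to 1099 against 1226 at day 1 and 108 to 230 against 376 at day 4. The share of calls that were higher was 46.9% with CsA at day 0 and 50.4% at day 1, against 35.7% and 69.2% under median scaling, and 34.7% and 40.4% with that scaling over detected probes. It was 44.3% and 20.0% for LIF withdrawal at day 1, and 51.6% and 34.1% with CsA, under quantile normalization and median scaling. Median scaling moved the median of all genes to -0.19 in LIF withdrawal at day 1 and to 0.15 in the day 1 difference on the log2 scale. Using the chip as a block was not run, since the headers give no chip. Dim probes such as those of Hspa5, Ern1, Ero1b and Ssr3 set the limit of what the arrays resolve.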
